A study of Mus musculus with 2 samples.

Results

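The proteasome is the barrel-shaped protease that degrades ubiquitin-tagged proteins in every nucleated cell. Its 20S core is a stack of rings built from alpha subunits, which form the gate, and beta subunits, 3 of which carry the proteolytic sites. A 19S cap, with a ring of ATPases and a set of non-ATPase subunits, binds ubiquitin chains and unfolds substrates, while alternative activators such as PA28 open the core without ubiquitin. Dedicated chaperones assemble core and cap. In lymphocytes the standard catalytic subunits can be replaced by induced ones, and the peptides that are made feed antigen presentation.

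RNA of 46 proteasome genes was compared between naive, CD44- gamma/delta T cells and naive CD8+ alpha/beta T cells (CD8+ cells below), out of 18193 genes that could be named. The genes were taken by name, as those whose symbol starts with Psma to Psmg and a digit, without the induced subunits Psmb8, Psmb9 and Psmb10. They are read by 99 of 34945 probe sets with a single gene symbol. Of the 46, 44 encode core, cap, activator, regulator or assembly proteins. The other 2 share only the start of the name, since Psmc3ip acts in meiotic recombination and Psme3ip1 encodes a protein that binds an activator. They are left out of the subunit groups below, but are included in the counts and medians over all 46 genes.

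The study hybridised 1 array per cell type, and both preparations came from lymph nodes of C57BL/6 mice by negative selection. The series title concerns Blk, a kinase, in IL-17-producing gamma/delta T cells, and the labels give no treatment or genetic change. How many mice a preparation came from is not given in the sources used here. Neither group has a replicate, so no value below has a standard error or a p-value, and every ratio compares these 2 preparations.

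Values are MAS5 signals, the scaled brightness of a probe set. A gene takes the probe set with the highest mean signal, ratios are gamma/delta over CD8+ on the log2 scale, and signals under a floor of 243.3, the median of the brighter array, are raised to it. Where just 1 of the 2 signals passes the floor, the ratio is a bound. Where stated, the log2 signals of a gene's probe sets were averaged instead. The floor was applied after this averaging, so signals under it entered as they stood. Median signals were 243.3 for gamma/delta and 242.1 for CD8+ cells. The 3′ to 5′ signal ratio of actin, a measure of RNA integrity, was 6.99 in gamma/delta and 3.12 in CD8+ cells, while those of Gapdh and the transferrin receptor lay between 3.06 and 4.47 on both arrays. Their part in the ratios was not tested. All 3 CD3 chains were above the floor on both arrays. Cd8a, at 731 in gamma/delta and 8852 in CD8+ cells, was 12.1-fold higher in CD8+ cells, and Cd8b1 stood at 382 and 2193. Both CD8 genes were thus above the floor on the gamma/delta array too. The gamma/delta markers Trgv4, Sox13 and Cd163l1 were above the floor only in gamma/delta cells. Of the B cell markers, Ms4a1 had signals of 858 in gamma/delta and 616 in CD8+ cells, and Cd79b, at 254 and 188, was above the floor only in gamma/delta cells, while Cd79a passed it on neither. Of 4 myeloid markers 3 passed the floor on neither array, and Itgam, at 223 and 285, was above it only in CD8+ cells. Of the markers of cycling cells, Mki67 had a log2 ratio of 0.26 and Top2a one of 0.44. In such bulk samples, fewer cells of a type and less RNA per cell cannot be told apart.

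Most proteasome genes had nearly the same signal in the 2 preparations. Of the 46 genes, 43 were above the floor on both arrays, 2 on 1 array and 1 on neither, so 45 had a ratio. Their median log2 ratio was -0.02, against 0.03 over all 11914 genes with a ratio, and 22 lay above 0 and 23 below. Without Psmc3ip and Psme3ip1, which both lay below 0, the median was 0.02. A difference of at least 2-fold was reached by 1 gene, Psmg1, which was higher in gamma/delta cells, and by 0 in the other direction. Among all genes, 9.74% reached 2-fold, 5.82% towards gamma/delta and 3.93% towards CD8+. At 1.5-fold there were 8 proteasome genes (17.8%), against a background of 30.2%, with 7 higher in gamma/delta (background 17%) and 1 higher in CD8+ cells (background 13.2%).

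The proteasome genes also lay closer to a ratio of 1 than genes in general. Their median absolute log2 ratio was 0.23, against 0.37 over all genes. This was not particular to them. Among the related lists described below, it was 0.22 for 8 proteasome gene regulators and 0.25 for 13 other proteasome-bound and assembly proteins. For 11 genes of the p97 pathway it was 0.26. It was larger for 6 genes of ubiquitin activation and transfer (0.77) and for the 3 induced subunits (1.07). Weak signals scatter more in MAS5 values, so the comparison was repeated among bright genes, with limits chosen after the values were seen. With a signal of at least 1000 on both arrays, 1 of 22 proteasome genes differed by 1.5-fold, Psme1, against 28.2% of 2890 genes, and the median absolute log2 ratios were 0.22 and 0.35. From a signal of 2000 upwards they were 0.11 over 13 proteasome genes and 0.36 over 1546 genes. These are descriptions of a single pair of arrays, with no test.

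**Figure D1:**
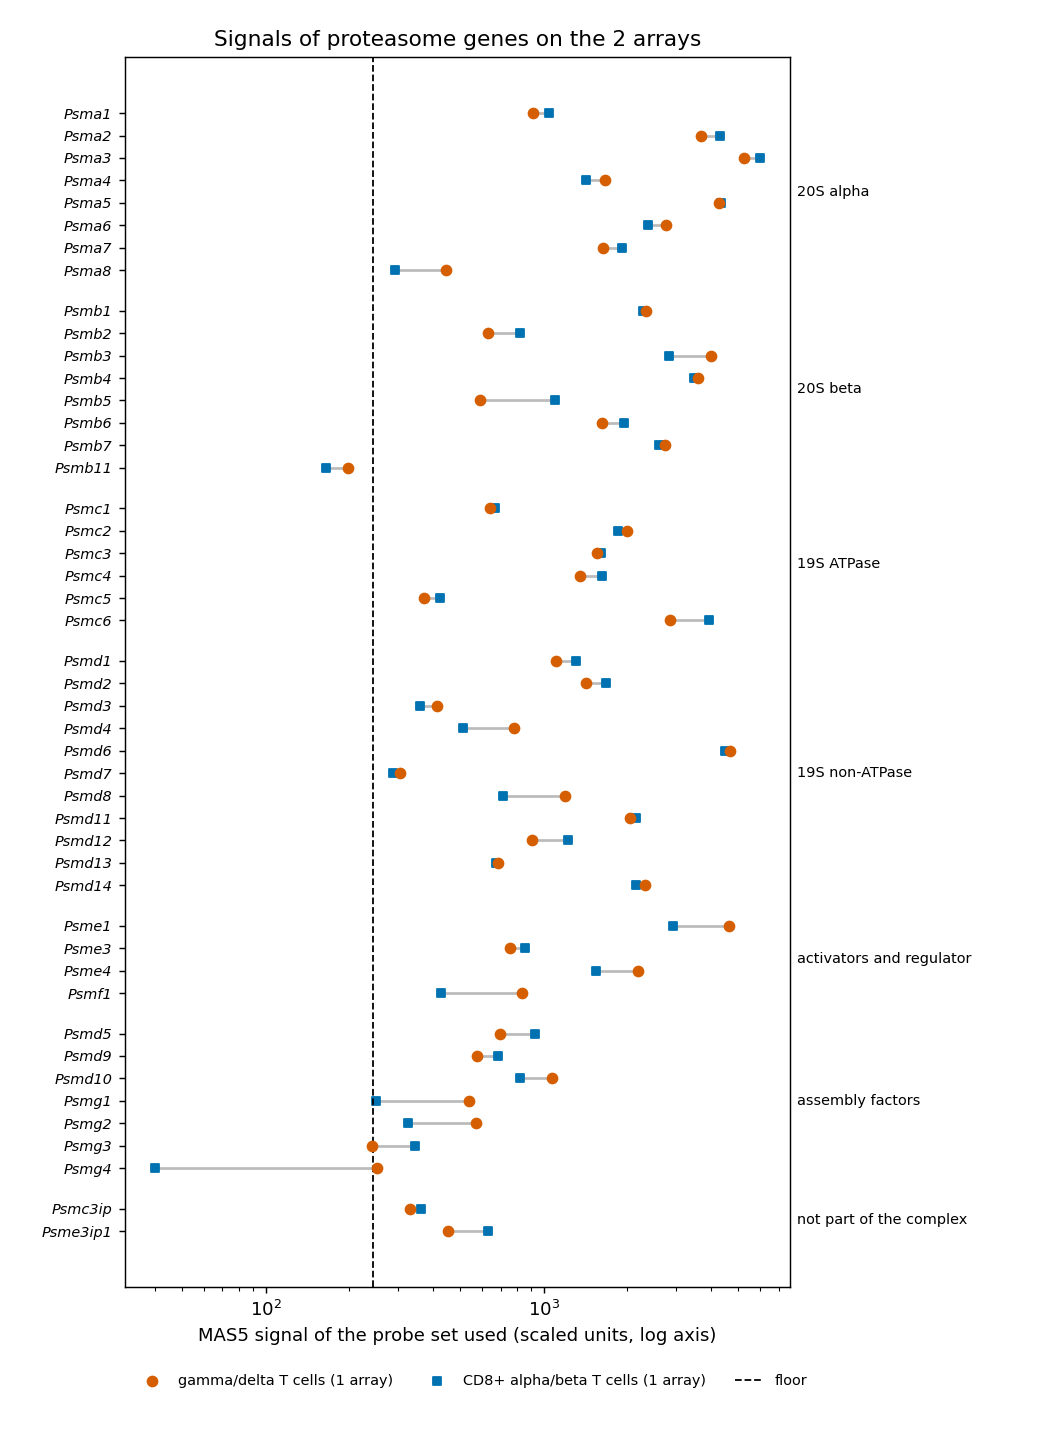
Signals of the 46 proteasome genes (log axis, scaled units) on the gamma/delta array (circles) and the CD8+ array (squares), joined by a line and ordered by role; the dashed line is the floor of 243.3. Most pairs of points nearly touch, and the wider gaps above the floor are those of Psmg1, Psmf1, Psmb5, Psmg2 and Psmd8.

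**Figure D2:**
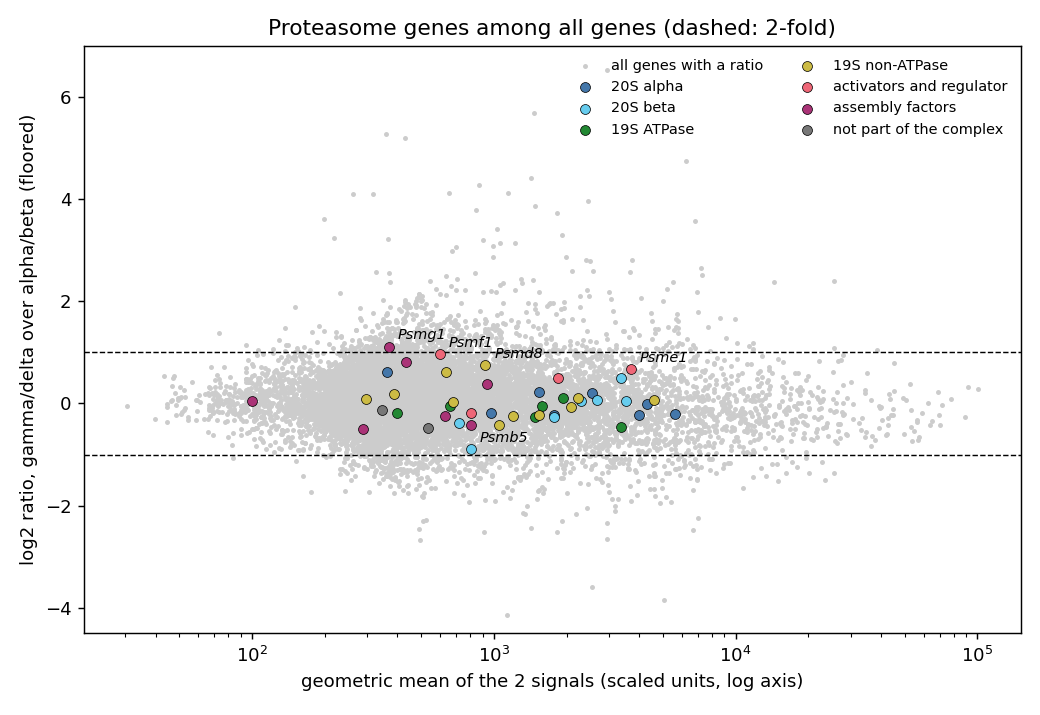
Log2 ratio of gamma/delta over CD8+ against the geometric mean of both signals (log axis), for 11914 genes with a ratio (grey) and the 45 proteasome genes among them (coloured by role). The proteasome genes lie in a band around 0, with Psmg1 alone past a dashed 2-fold line.

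The 4 genes whose promoters are shown here are Psmg1, past 2-fold, Psmb5, the lowest in gamma/delta cells, Psmb6, a second catalytic subunit whose promoter holds the motif found in that of Psmb5, and Psme1, the activator subunit past 1.5-fold. The sequences run 5′ to 3′ on the gene's strand, from 250 bases before to 50 after the start site, as given by RefSeq for build GRCm38.p6. Capitals mark the match to a motif, and each of these promoters held 1 match, with none overlapping another.
Psmg1 (chr16:95990911-95991210, minus strand; capitals: gamma-activated site, TTCNNNGAA): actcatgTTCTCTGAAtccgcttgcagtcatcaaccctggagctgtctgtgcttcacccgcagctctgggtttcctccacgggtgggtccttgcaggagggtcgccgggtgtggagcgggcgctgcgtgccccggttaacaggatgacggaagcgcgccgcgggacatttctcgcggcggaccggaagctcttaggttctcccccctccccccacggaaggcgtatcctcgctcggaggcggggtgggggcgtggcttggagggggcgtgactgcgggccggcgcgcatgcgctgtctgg
Psmb5 (chr14:54617946-54618245, minus strand; capitals: core of the antioxidant response element, TGACNNNGC): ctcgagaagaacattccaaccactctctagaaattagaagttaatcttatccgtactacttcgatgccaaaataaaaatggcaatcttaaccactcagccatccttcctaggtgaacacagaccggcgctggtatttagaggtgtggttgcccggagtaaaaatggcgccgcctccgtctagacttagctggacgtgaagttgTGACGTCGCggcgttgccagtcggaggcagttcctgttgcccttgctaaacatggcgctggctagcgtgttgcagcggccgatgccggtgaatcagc
Psmb6 (chr11:70525107-70525406, plus strand; capitals: core of the antioxidant response element, TGACNNNGC): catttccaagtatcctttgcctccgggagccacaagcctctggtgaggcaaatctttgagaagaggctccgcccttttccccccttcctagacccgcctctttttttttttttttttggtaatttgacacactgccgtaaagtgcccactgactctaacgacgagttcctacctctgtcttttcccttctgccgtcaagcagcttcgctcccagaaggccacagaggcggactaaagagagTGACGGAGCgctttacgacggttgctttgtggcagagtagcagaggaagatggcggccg
Psme1 (chr14:55578244-55578543, plus strand; capitals: interferon response element, GAAA, then NN, then GAAA, here on the opposite strand): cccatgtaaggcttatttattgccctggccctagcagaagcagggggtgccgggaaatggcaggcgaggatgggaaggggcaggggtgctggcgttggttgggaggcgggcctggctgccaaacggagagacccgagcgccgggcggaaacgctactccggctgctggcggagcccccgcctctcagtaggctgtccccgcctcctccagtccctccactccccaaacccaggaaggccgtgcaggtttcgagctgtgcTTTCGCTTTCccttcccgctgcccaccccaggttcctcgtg

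RefSeq promoters were matched for 38 of the 46 genes, and 4 motifs were searched on both strands. The core of the antioxidant response element, the site of the factors Nfe2l1 and Nfe2l2 that drive proteasome genes, was found in 6 of the 38 genes (15.8%) and in 14.0% of all 27025 genes with a promoter in the table. Those 6 were Psmb5, Psmb6, Psmc6, Psmd12, Psmd9 and Psme4, of which 5 had a log2 ratio below 0 by the probe set used, although probe sets of Psmc6 and of Psme4, the sixth, were of both signs. The interferon response element was found in 5 (13.2%, against 3.99% of all genes), Psmb3, Psmd4, Psmd9, Psme1 and Psmg4. By the probe set used 4 had a ratio above 0 and Psmd9 one below, but Psmb3 and Psmd4 had probe sets of both signs and the value of Psmg4 is a bound, so that Psme1 alone was measured above 0 without a contrary probe set. A CCAAT box, which binds the factor NF-Y, stood in 39.5% of the proteasome genes and 41.1% of all genes, and the gamma-activated site in 2 genes, Psmd2 and Psmg1 (5.26%, against 9.55% of all genes). Promoters of the 3 induced subunits, Psmb8, Psmb9 and Psmb10, held neither the interferon nor the antioxidant response element. Among them Psmb9 had a CCAAT box and Psmb8 a gamma-activated site. A match is a run of letters, not a shown binding site, and these counts have no test.

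The alpha subunits of the 20S core form the outer rings and the gate. Of 8, 5 had a ratio below 0 and 3 above, none reached 2-fold, and the median log2 ratio was -0.10. Psma3 had a signal of 5240.0 in gamma/delta and 6009 in CD8+ cells. Psma2 stood at 3670.3 and 4301, and Psma5 at 4283 and 4343. By the probe sets used, these and Psma1 and Psma7 were lower in gamma/delta cells by at most 1.17-fold. Psma3, Psma5 and Psma7 each had another probe set above 0. Those of Psma3 (447 against 142) and Psma5 (307 against 194) were under the floor in CD8+ cells. With probe sets averaged before the floor, the log2 ratios of Psma3 and Psma5 turned to 0.73 and 0.16. On the other side, Psma4 stood at 1657 in gamma/delta and 1421 in CD8+ cells, and Psma6 at 2753 and 2381, although the mean over probe sets of Psma6 was -0.40. The largest ratio of the ring was that of Psma8, the alpha subunit of the testis, at 446 against 291, with gamma/delta cells 1.53-fold higher. Both signals were near the floor.

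The beta subunits form the inner rings. Among 7 with a ratio the median log2 ratio was 0.04, with 4 above 0 and 3 below, while Psmb11, the thymus-specific catalytic subunit, did not pass the floor on either array, at 199 and 165. The structural subunits Psmb1 (2338 in gamma/delta against 2273 in CD8+ cells) and Psmb4 (3594 against 3485) were alike within 1.03-fold, and averaging probe sets gave log2 ratios of -0.11 and 0.16. Psmb2 was 1.30-fold higher in CD8+ cells (633 against 820). Psmb3 was 1.42-fold higher in gamma/delta cells by the probe set used (4008 against 2829), but its other probe set pointed the other way, with 826 against 1002.

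Of the 3 standard catalytic subunits, Psmb5 differed most. This beta 5 subunit carries the chymotrypsin-like activity, and its signal was 588 in gamma/delta and 1098 in CD8+ cells, a 1.87-fold difference (log2 ratio -0.90). It was the lowest ratio of all proteasome genes and the only one past 1.5-fold towards CD8+ cells, and it rests on 1 probe set. The beta 1 subunit Psmb6, with caspase-like activity, stood at 1619 and 1949, a log2 ratio of -0.27. The beta 2 subunit Psmb7, with trypsin-like activity, was level, at 2732 and 2602 (0.07). The induced counterparts, which belong to antigen processing, differed in another way: Psmb9 (1031 against 491) and Psmb10 (2764 against 958) were 2.10-fold and 2.89-fold higher in gamma/delta cells, while Psmb8 (2154 against 2858) was 1.33-fold higher in CD8+ cells. With the probe sets of Psmb8 averaged, those under the floor included, its log2 ratio was -0.03, so its direction is not settled. At beta 1 and beta 2 the induced form was higher in gamma/delta cells, in each case on 1 measured probe set.

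**Figure D3:**
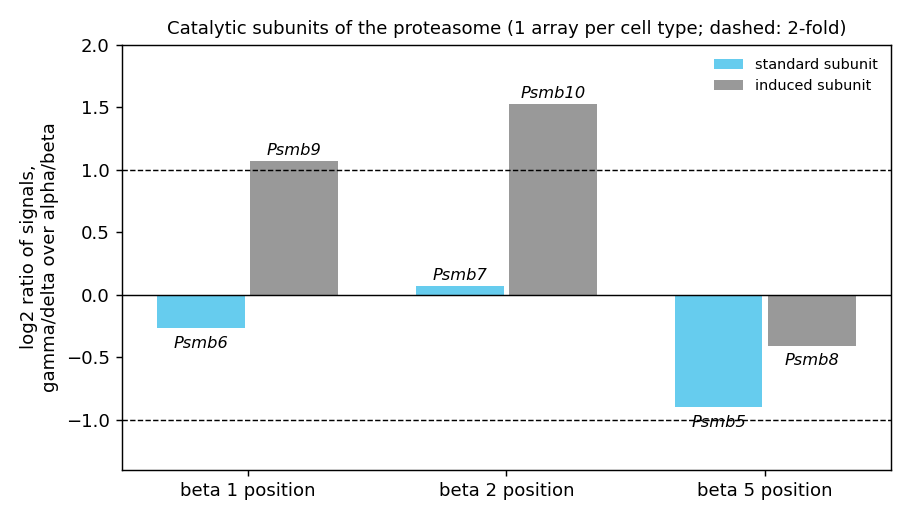
Ratio (log2) of gamma/delta over CD8+ signals for the standard catalytic subunits and their induced counterparts, at the beta 1, beta 2 and beta 5 positions (bars from 0, 1 array per cell type, no error). Psmb9 and Psmb10 pass the dashed 2-fold line at 1.07 and 1.53, and Psmb5 and Psmb8 are both below 0, at -0.90 and -0.41.

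The ATPase ring of the 19S cap, which unfolds substrates, had the narrowest span of ratios among the groups of the complex. None of its 6 genes differed by 1.5-fold, and their log2 ratios ran from -0.46 for Psmc6 to 0.10 for Psmc2, which was -0.29 with its probe sets averaged. Of the 6, 5 lay below 0, and the median was -0.13. Psmc3 stood at 1556 in gamma/delta and 1612 in CD8+ cells and Psmc1 at 643 and 671. Psmc4, at 1348 and 1616, and Psmc5, at 371 and 423, were slightly lower in gamma/delta cells. Psmc6 had signals of 2859 and 3938, so that the gamma/delta cells were lower by the probe set used. A second probe set of Psmc6 was above the floor only in gamma/delta cells, at 622 against 173, a bound of 1.35 on the log2 scale the other way.

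The non-ATPase subunits of the cap include ubiquitin receptors and the deubiquitinase Psmd14. Their median log2 ratio was 0.06 over 11 genes, with 7 above 0 and 4 below. Psmd14 was level at 2321 in gamma/delta and 2156 in CD8+ cells, as was the lid subunit Psmd6, at 4695 and 4509.9 (log2 ratio 0.06). The large subunits Psmd1 (1107 against 1308) and Psmd2 (1423 against 1675), which form the base of the cap with the ATPases, had the same log2 ratio of -0.24. The other probe set of Psmd2 was above the floor only in gamma/delta cells, at 268 against 102, a bound of 0.14 on the log2 scale. Averaging both before the floor, with the 102 as it stood, turned the log2 ratio of Psmd2 to 0.58. Psmd12 had the lowest, -0.43, with 909.8 against 1226. Past 1.5-fold were Psmd8, a lid subunit, at 1196 in gamma/delta and 713 in CD8+ cells (1.68-fold higher in gamma/delta), and Psmd4, the ubiquitin receptor, at 782 and 513 (1.53-fold). For Psmd4 the 3 probe sets did not point one way, with log2 ratios of -0.73, 0.02 and 0.61. Psmd3, Psmd7, Psmd11 and Psmd13 lay between -0.07 and 0.19.

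Of the 11 activators, regulator and assembly factors with a ratio, 4 (36.4%) differed by 1.5-fold, near the background of 30.2%. All 4 were higher in gamma/delta cells, a direction with a background of 17%. Of the 32 subunits of core and cap 4 (12.5%) differed by 1.5-fold, 3 of them higher in gamma/delta cells. The difference between the shares of the 2 sets was not tested. Psme1, a subunit of the interferon-inducible activator PA28, had a signal of 4658 in gamma/delta and 2910.1 in CD8+ cells, a 1.60-fold difference, on 1 probe set. Psmf1, which encodes the proteasome inhibitor and regulator PI31, stood at 837 and 428, 1.96-fold apart and just short of the call by the probe set used. A second Psmf1 probe set, above the floor only in gamma/delta cells at 338 against 201, pointed the same way, and the other 2 were under it on both arrays. With all 4 averaged, those under the floor included, the log2 ratio of Psmf1 fell to 0.23. Psme4, the nuclear activator PA200, had 2185 against 1542 (1.42-fold) by the probe set used. However, its 6 probe sets ran from -0.83 to 0.50 on the log2 scale and 4 of them were below 0, so no direction can be given. Psme3, the nuclear activator PA28 gamma, was also split between probe sets, with 755 against 859 on the one used and 753 against 391 on another. The median log2 ratio of the 4 genes was 0.59, and 0.014 when the probe sets of a gene were averaged. That average includes probe sets under the floor, such as 1 of Psme3 at 18.2 in gamma/delta and 126 in CD8+ cells. It is therefore not a measure of measured probe sets alone.

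The largest ratio of the family belonged to an assembly factor. Psmg1 and Psmg2 form the chaperone pair that starts the alpha ring, and both were higher in gamma/delta cells. Psmg1 had a signal of 540.4 in gamma/delta and 250.0 in CD8+ cells, 2.16-fold apart (log2 ratio 1.11). Its CD8+ signal lay just above the floor, and it rests on 1 probe set. Psmg2 stood at 573 and 325, 1.76-fold apart, and neither of its other probe sets passed the floor. Raising the floor to the 70th percentile of signals, 447, turned the log2 ratios into bounds of 0.27 for Psmg1 and 0.36 for Psmg2.

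The other core chaperone pair was barely measured. Psmg3 was at 241.8 in gamma/delta cells, under the floor, and 345 in CD8+ cells, at least 1.42-fold higher in CD8+ cells. Psmg4 was at 252 and 40.1, a gamma/delta excess of at least 1.03-fold, while its other probe set read 17.3 and 179.5, both under the floor. The chaperones of the cap base went both ways, with Psmd10 (gankyrin) at 1074 against 819 (log2 ratio 0.39), Psmd9 at 577 against 685 (-0.25) and Psmd5 at 699 against 933 (-0.42). The assembly factors as a group had a median of 0.05 and the widest span among the groups, from -0.50 to 1.11.

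**Figure D4:**
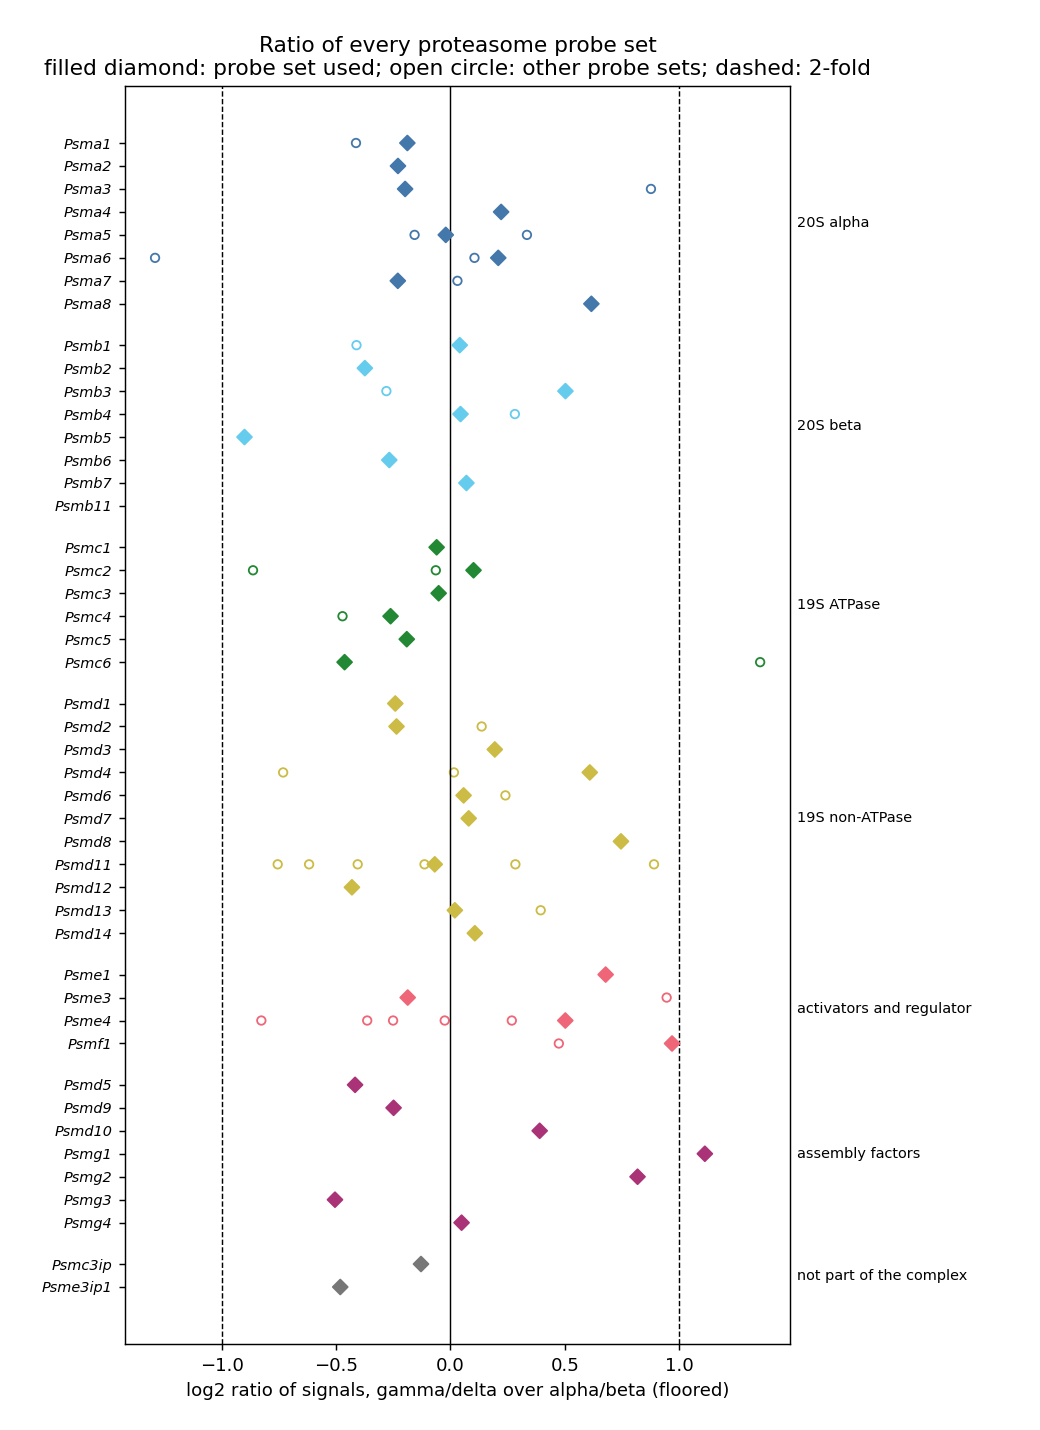
Floored log2 ratio of gamma/delta over CD8+ for every probe set with a ratio, by gene and role; filled diamonds are the probe sets used, open circles the others, and dashed lines mark 2-fold. Apart from Psmg1, 1 probe set each of Psma6 and Psmc6 passes a dashed line, in opposite directions, and in both genes the probe set used lies on the other side of 0.

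Probe sets of one gene often gave different ratios. The pooled SD between them on the log2 scale was 0.52 over 14 proteasome genes with several probe sets measured on each array. Ratios of the 45 proteasome genes had an SD of 0.43 from gene to gene. Over all genes the SD was 0.50 between probe sets (3317 genes) and 0.64 from gene to gene (11914 genes). Of the 19 proteasome genes with a ratio on several probe sets, 13 had probe sets of opposite sign. The widest was Psmc6, and in Psma6 another probe set read 466 against 1140 (log2 ratio -1.29), while the one used read 2753 against 2381 (0.21). Psmd11, a lid subunit with the most probe sets, had 7 with a ratio, from -0.75 to 0.89. In these genes the sign of a ratio is not settled. Those with a single sign over several probe sets were Psma1 and Psmc4, lower in gamma/delta cells, and Psmb4, Psmd6, Psmd13 and Psmf1, higher there.

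The 2 genes outside the complex were lower in gamma/delta cells, Psmc3ip at 331 against 362 and Psme3ip1 at 452 against 631 (log2 ratio -0.48).

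Proteins that bind or build the proteasome but carry other names went both ways. Of 16 listed, 13 were read by a probe set with 1 symbol, and the median log2 ratio was -0.03. At 2-fold, 0 were called towards gamma/delta (background 5.82%) and 1 towards CD8+ cells (background 3.93%). The 1 was Ubqln4, a shuttle for ubiquitinated proteins, at 1472 in gamma/delta and 2958 in CD8+ cells (2.01-fold). In gamma/delta cells Ubqln2, its paralogue, was 1.69-fold higher (2971 against 1760.1), and higher too were Zfand5, a proteasome-binding zinc finger protein (10160 against 5679, 1.79-fold), and Ecpas, a scaffold of the assembled proteasome (585 against 362, 1.62-fold). Pomp, the maturation factor of the 20S core, was nearly level at 1670.1 and 1409, as was the deubiquitinase Usp14, at 684 and 698.

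Transcription factors and enzymes that set proteasome gene expression went both ways. Nfe2l1, which raises proteasome genes when degradation fails, was level at 912 in gamma/delta and 874 in CD8+ cells. Nfe2l2, its stress-responsive relative, was 2.03-fold higher in CD8+ cells (503 against 1022), with a second probe set at a log2 ratio of 0.13. The NF-Y subunits differed, with Nfyb at 3714 in gamma/delta and 1774 in CD8+ cells (2.09-fold; its other probe set at 0.18), Nfya at 1786 and 991 (1.80-fold) and Nfyc level (3607 against 3896). Over 8 measured of 9 listed the median log2 ratio was 0.08.

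The step before the proteasome, the activation and transfer of ubiquitin, was higher in CD8+ cells in most of the few genes read. Of 11 listed, 6 had a probe set with 1 symbol, 5 of these were below 0, and the median log2 ratio was -0.77. At least 2-fold higher in CD8+ cells were 2 (background 3.93%), and 0 in gamma/delta cells (background 5.82%). The conjugating enzyme Ube2d1 was 3.06-fold higher in CD8+ cells (250.3 in gamma/delta against 765), and the activating enzyme Uba6 2.09-fold (678 against 1420.2). The gamma/delta signal of Ube2d1 lay just above the floor, and its ratio rests on 1 measured probe set. The probe sets of Uba6 ran from -1.07 to 0.61. The relatives Ube2d2a and Ube2d3 had log2 ratios of -0.85 and -0.69, the latter with probe sets from -1.14 to 1.30, and with probe sets averaged the list's median was -0.30.

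The p97 unfoldase extracts ubiquitinated proteins and hands them to the proteasome. Its list held p97, its partners and the peptidases Npepps and Tpp2, at log2 ratios of -0.59 and -0.16. Over these 11 genes the median log2 ratio was 0.0022. At least 2-fold higher in CD8+ cells was 1 (background 3.93%), and 0 in gamma/delta cells (background 5.82%). Vcp, which encodes p97 itself, was 1.63-fold higher in CD8+ cells (1223 against 1998), with its other probe set at -1.18. The cofactor Ubxn7 was 2.27-fold higher there (1748 against 3970), on 1 probe set. Its substrate adaptors Ufd1 and Nploc4 had log2 ratios of 0.27 and 0.26, with another probe set of Ufd1 at -0.66.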

How the data were processed

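RNA of 2 samples was hybridised to 1 Affymetrix array each. The deposited table holds 1 linear intensity per probe set, made by the authors with the MAS5 method (Affymetrix Expression Console, version 1.0), as the submitters' processing notes say. The trimmed mean over all probe sets was 500.003 on both arrays, so the values were used as deposited. Probe sets were named by a platform annotation, and 34945 of 45101 had 1 symbol and were no controls. All 46 members kept their symbol in a RefSeq table of assembly GRCm38.p6. Each gene was read from its brightest probe set by mean log2 signal, the floor was the median of the brighter array, and a difference was called at 2-fold. No test was run, and precision is limited by the number of arrays. The members, the gene lists and the rule for named genes were chosen with earlier results of these data known. That rule took members past 2-fold, the catalytic subunits, activators and assembly factors, the extremes of each group, and up to 4 genes per related list. Calls were checked on simulated data. Alternatives were other scalings, floors, probe set choices, member sets and a call at 1.5-fold. Python 3.11.15 and statsmodels 0.14.6 were used.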

Additional observations from a re-analysis of the deposited data

Results flagged for a closer look

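A signal stood above the floor in a probe set that the comparisons do not use. It is annotated with 2 symbols, Psme2 and Psme2b, and so names neither here. It read 2318 for gamma/delta and 1581 for CD8+ alpha/beta cells, 1.47-fold higher in gamma/delta cells. No group has the 4 samples that a search for outlying samples needs.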

How the results depend on the processing

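The single 2-fold call, Psmg1, was also made under median scaling, quantile normalization and loess. The call could not change with the floor at the 30th percentile, averaged probe sets, or both reduced member sets. Nor could it change with probe sets without _x_at, _s_at or _a_at endings. Psmg1 has 1 probe set, without such an ending, its signals passed the floor, and both reduced sets keep it. Under a 70th percentile floor the count towards gamma/delta was 0, and with no floor it was 2, Psmg1 and Psmg4. A call at 1.5-fold gave 7 genes towards gamma/delta and 1 towards CD8+ cells. The median of activators and regulator was 0.014 with probe sets averaged, those under the floor included. The median of all members stayed between -0.08 and 0.03 under these settings. The medians of the alpha and beta subunits changed sign (0.16 and -0.11) with probe sets averaged, and that of the assembly factors was -0.10 without those endings, so these groups have no settled direction. Of 361 values of single genes under the alternatives, 12 in 10 genes moved by more than 0.50, the SD between probe sets. With probe sets averaged, Psma3, Psma6, Psmc6, Psmd2, Psmd4, Psme4 and Psmf1 moved. Psma3 and Psmb3 moved without those endings, and Psmg1 and Psmg4 with the floor. Many values could not move, as 20 members have 1 probe set, so the share is no measure of stability. The set without Psmc3ip and Psme3ip1 was chosen after seeing the data. No replicate could be left out, and no paired analysis was possible because each group has 1 array.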
